A study of Mus musculus with 8 samples.

Results

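Class I peptide loading and the immunoproteasome are represented here by 10 genes, found by their symbols: Psmb8, Psmb9, Psmb10, Psme1, Psme2, Tap1, Tap2, Tapbp, Erap1 and Nlrc5. They are 10 of the 24674 lines of the deposited table that carry a symbol, and all 10 were among the 14390 genes tested. The measurements came from RNA sequencing of liver from 8 female mice, 4 per group. WT animals were wild type with wild-type ancestors throughout, and F2_outcross animals were equally wild type in genotype but descended from a maternal grandmother without Khdc3. The groups therefore differed, as far as the labels say, in ancestry alone, and the comparison asks whether that ancestry goes with another hepatic transcriptome. The labels name no strain, age, litter or batch, and p-values therefore cover the spread among these 8 animals and no more.

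Cells cut cytosolic and nuclear proteins with the proteasome and show some of the resulting peptides on class I molecules of the major histocompatibility complex. Interferon-gamma exchanges the standard catalytic subunits for immune ones, and the complex then yields more peptides that end in residues class I molecules can hold. The transporter TAP carries peptides into the endoplasmic reticulum, where an aminopeptidase trims them and tapasin helps to fit them into the class I groove. Hepatocytes make these proteins at low levels at rest, while leukocytes and Kupffer cells, the resident macrophages of the liver, make more.

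None of the 10 genes passed the test, against 2.66% of all tested genes. The fitted level was lower in F2_outcross for 8 of the 10, beside 51.1% of all tested genes. Psmb8 and Psme2 came closest. They had every F2_outcross library below every WT library, as had 5.45% of all tested genes. The Tap1 and Psmb9 pair and the other PA28 subunit gene, Psme1, were also lower on average, with overlapping groups. Tapbp and Erap1, which act on peptides after transport, were higher on average in F2_outcross, with overlapping groups. For Erap1 the log2 fold change was 0.08, and 0.0054 without WT replicate 2.

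Promoter sequences are shown for the genes that lie closest to the test threshold, for the shared Psmb9 and Tap1 stretch and for Tapbp, whose difference had the opposite sign. RefSeq sequences (build GRCm38.p6) matched 8 of the 10 genes by symbol. Each runs 5′ to 3′ on the strand given and ends at the base before the annotated start. Capitals mark matches, on either strand, to 5 motifs: the core of the interferon-stimulated response element, GAAANNGAAA; the gamma-activated site, TTCNNNGAA; the CCAAT box; the GC box, GGGCGG; and the cyclic AMP response element, TGACGTCA.
Psmb9-Tap1 (chr17:34187331-34187555, plus strand, towards Tap1): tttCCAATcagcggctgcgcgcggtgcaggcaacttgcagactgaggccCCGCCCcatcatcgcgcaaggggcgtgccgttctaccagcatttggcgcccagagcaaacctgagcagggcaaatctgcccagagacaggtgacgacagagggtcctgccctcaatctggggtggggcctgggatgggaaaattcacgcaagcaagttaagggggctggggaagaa
Psmb8 (chr17:34197945-34198194, plus strand): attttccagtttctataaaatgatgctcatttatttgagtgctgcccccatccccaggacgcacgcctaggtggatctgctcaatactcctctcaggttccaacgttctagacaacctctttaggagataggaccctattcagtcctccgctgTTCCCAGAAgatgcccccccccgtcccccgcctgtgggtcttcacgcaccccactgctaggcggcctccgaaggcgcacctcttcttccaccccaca
Psme2 (chr14:55591102-55591351, minus strand): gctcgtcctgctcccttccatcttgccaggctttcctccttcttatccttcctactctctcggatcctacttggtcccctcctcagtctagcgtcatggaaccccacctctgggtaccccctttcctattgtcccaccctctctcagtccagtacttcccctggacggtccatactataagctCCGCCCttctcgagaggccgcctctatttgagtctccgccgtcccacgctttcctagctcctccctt
Tapbp (chr17:33919228-33919477, plus strand): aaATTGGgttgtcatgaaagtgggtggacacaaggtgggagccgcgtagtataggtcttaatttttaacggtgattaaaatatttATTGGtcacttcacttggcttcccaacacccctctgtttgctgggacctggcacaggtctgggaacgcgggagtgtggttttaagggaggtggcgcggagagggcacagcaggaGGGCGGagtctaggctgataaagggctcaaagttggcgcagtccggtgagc

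In RefSeq the Psmb9 and Tap1 starts lay 226 bases apart on opposite strands, so the 225 bases between them lie upstream of both starts. The GENCODE extents given below differ. In them Psmb9, on the minus strand, reaches 34187764, and Psmb8 and Tapbp, on the plus strand, begin at 34197721 and 33915899. By those extents the stretches shown for Psmb9, Psmb8 and Tapbp lie inside the genes. The shared Psmb9 and Tap1 stretch held 1 CCAAT box and 1 GC box. The Psmb8 promoter held a gamma-activated site, TTCCCAGAA, from -97 to -89 relative to the start, and no other of the 5 motifs. The Psme2 promoter shown held 1 GC box, and the window of a second annotated Psme2 start, at 55591021, held 2. The Tapbp promoter held 2 CCAAT boxes and 1 GC box. In the upstream 250 bases of all 32851 RefSeq promoters, 7.02% held the gamma-activated site, 2.98% the interferon-stimulated core, 33.9% a CCAAT box, 32.7% a GC box and 1.55% the cyclic AMP element. Neither the interferon-stimulated core nor the cyclic AMP element matched in the windows of the 8 genes. These matches describe letters and were not tested as sites.

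Each library held 27855142 to 35602558 reads on lines with a symbol, and 1 read was worth 0.779 to 1.04 normalized reads. Across all tested genes 383 were called (limma, Benjamini-Hochberg adjusted p under 0.05), 230 higher and 153 lower in F2_outcross, with 198 higher and 208 lower under upper quartile scaling. Leaving out 1 animal moved that total by over 1.5 times in 6 cases. It was 131, 1073, 120 and 131 when WT replicate 1, 2, 3 or 4 was dropped, and 142 and 111 when F2_outcross replicate 1 or 2 was. The labels give the tissue as liver and the cell type as hepatocyte. The summed level of 8 hepatocyte markers was 3117600 to 4427700 normalized reads in WT and 3153900 to 3981300 in F2_outcross. Most of it was Alb, at 2312400 to 3514600 in WT and 2459300 to 3110500 in F2_outcross, so the sum says little about the other markers. Markers of leukocytes, Kupffer cells, endothelium, stellate cells and bile ducts were detected as well, so the libraries hold RNA of more than hepatocytes. In bulk tissue, fewer cells of a type and less RNA per cell cannot be told apart.

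Psmb8 encodes the immune subunit that takes the place of Psmb5 (LMP7; chromosome 17, 34197721 to 34201454). Its levels were 1868, 1166, 1318 and 1163 normalized reads in WT replicates 1 to 4 and 929.7, 1009.8, 1075 and 873 in F2_outcross replicates 1 to 4. The highest F2_outcross library lay below the lowest WT library, and WT replicate 1 stood well above all others. The means were 1379 ± 334 in WT and 972 ± 88.7 in F2_outcross (SD, n = 4 per group), 1.39-fold higher in WT. The log2 fold change, F2_outcross minus WT on log2(normalized reads + 1) as for every gene here, was -0.48 ± 0.15 (SE; 95% interval -0.80 to -0.16; limma adjusted p = 0.0975). Without WT replicate 1 it was -0.32, and with limma library weights, which count divergent libraries less, it was -0.49 (adjusted p = 0.0343).

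Psmb9 encodes the immune counterpart of Psmb6 (LMP2; chromosome 17, 34181987 to 34187764). WT levels were 1036.5, 459.8, 754 and 647 normalized reads, and F2_outcross levels were 460.0, 545, 653 and 509. WT replicates 1 and 2 were the highest and the lowest of the 8 libraries, so the WT range enclosed the F2_outcross range. The log2 fold change was -0.37 ± 0.21 (SE, n = 4 per group; interval -0.82 to 0.08; limma adjusted p = 0.329). It was -0.18 without WT replicate 1 and -0.57 without WT replicate 2, and neither passed (limma adjusted p = 0.681 and adjusted p = 0.0629).

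Psmb10 encodes the immune counterpart of Psmb7 (MECL-1; chromosome 8, 105935735 to 105938444). WT levels were 1603, 1224, 1129.7 and 1103 normalized reads, and F2_outcross levels were 877, 1207, 1148 and 1147. Apart from the high WT replicate 1 and the low F2_outcross replicate 1, the libraries were intermixed. Its fitted log2 fold change was -0.20 ± 0.14 (SE, n = 4 per group; interval -0.51 to 0.10; limma adjusted p = 0.443). It was -0.08 without WT replicate 1 and -0.10 without F2_outcross replicate 1.

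**Figure D1:**
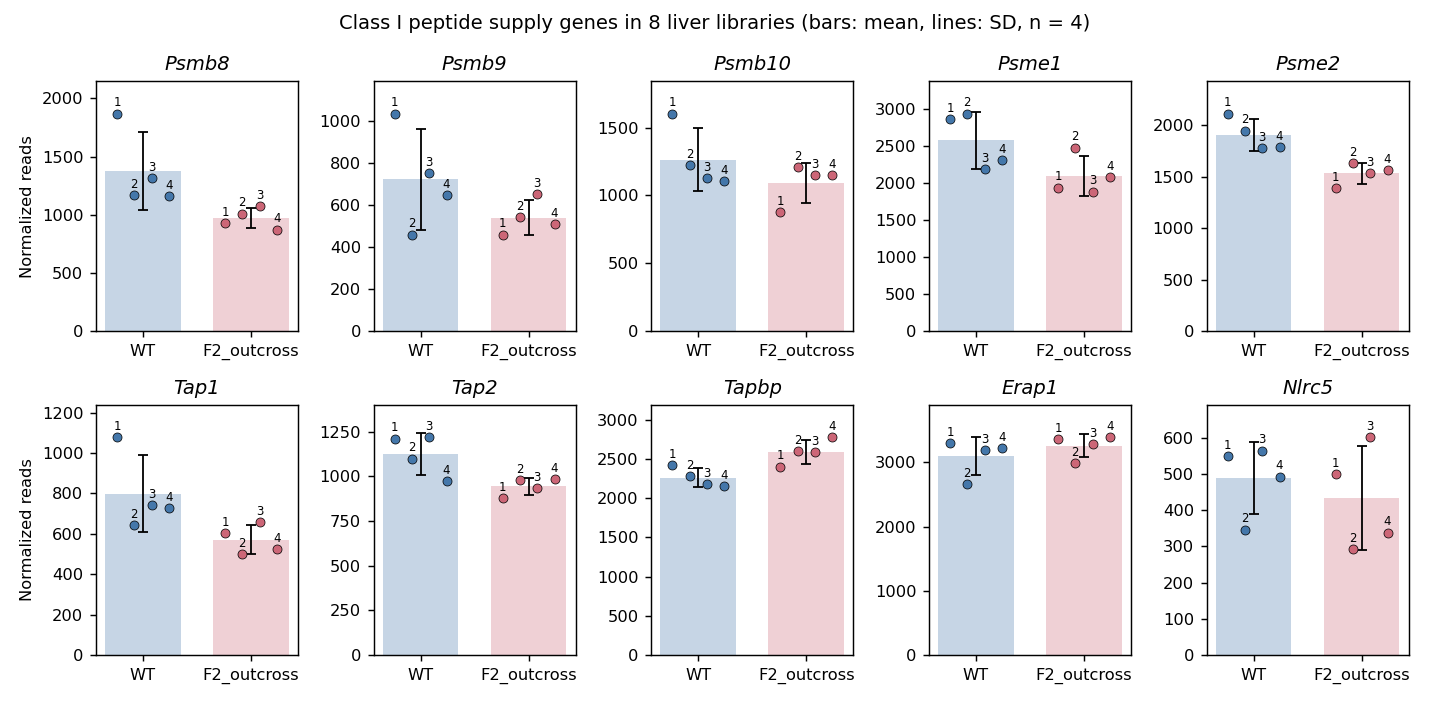
Normalized reads (vertical axes, from 0) of the 10 genes in 4 WT and 4 F2_outcross libraries, with points numbered by replicate, bars for the mean and lines for the SD. Psmb8 and Psme2 are the genes whose groups do not overlap, and WT replicate 1 is the highest of the 8 libraries for 5 genes.

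Each immune subunit was set against the standard subunit whose place it takes, as a ratio of normalized reads per kb of the principal transcript. Psmb8 to Psmb5 was 1.27, 0.841, 1.08 and 0.923 in WT and 0.740, 0.745, 0.909 and 0.780 in F2_outcross. The means were 1.03 ± 0.187 and 0.794 ± 0.0790 (SD, n = 4 per group), and the groups overlapped because F2_outcross replicate 3 lay above WT replicate 2. Psmb9 to Psmb6 was 0.116 ± 0.0331 in WT and 0.106 ± 0.0230 in F2_outcross. Psmb10 to Psmb7 was 0.360 ± 0.0570 and 0.333 ± 0.0476. All 3 ratios were highest in WT replicate 1 and overlapped between the groups. Their size depends on the length used, since Psmb8 to Psmb5 was 0.494 in WT with the union of exons, a length chosen after seeing the data. The ratios were not tested.

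**Figure D2:**
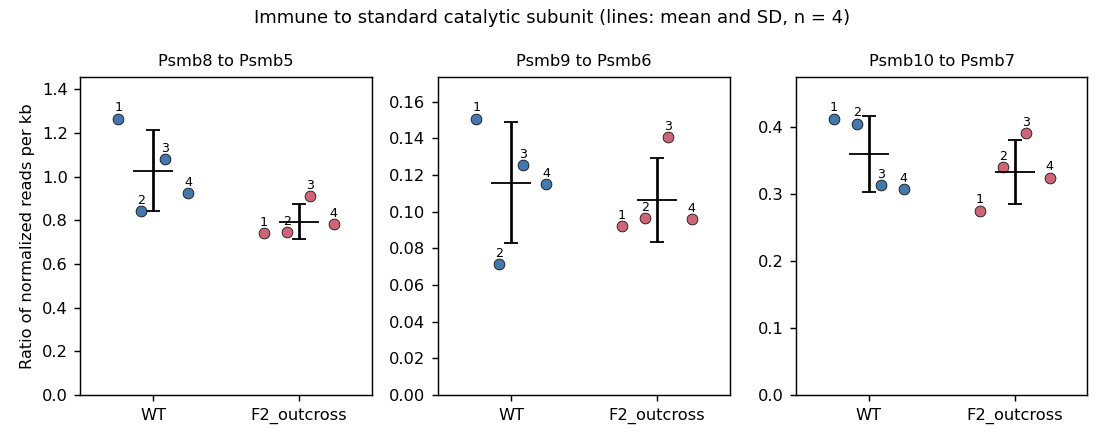
Ratio of normalized reads per kb (principal transcript) of Psmb8 to Psmb5, Psmb9 to Psmb6 and Psmb10 to Psmb7 in each library, numbered by replicate, with mean and SD lines. The groups overlap in each panel, and WT replicate 1 holds the highest ratio in all 3.

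PA28 is a ring that caps the proteasome core and speeds the release of peptides. Psme2 encodes its beta subunit (chromosome 14, 55587441 to 55591113). WT levels were 2109.5, 1946, 1774 and 1786.5 normalized reads, and F2_outcross levels were 1388, 1632, 1534 and 1563. All F2_outcross libraries lay below all WT libraries. The means were 1904 ± 158 and 1529 ± 103 (SD, n = 4 per group), 1.24-fold higher in WT. On the log2 scale the difference was -0.31 ± 0.10 (SE; interval -0.53 to -0.10; limma adjusted p = 0.0998), and with library weights it was -0.31 (adjusted p = 0.0427).

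Psme2b, a near copy of Psme2, matched it at 97.0% of 829 aligned bases, so reads may be shared between the 2 and the split is uncertain. Psme2b was at 581 ± 86.1 normalized reads in WT and 449 ± 49.5 in F2_outcross (SD, n = 4 per group). Summing the pair, an alternative chosen after seeing the data, gave a log2 fold change of -0.33 (limma adjusted p = 0.0979).

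Psme1 encodes the alpha subunit of the same ring (chromosome 14, 55578123 to 55581529). WT levels were 2869.5, 2938, 2185 and 2315 normalized reads, and F2_outcross levels were 1940.3, 2481, 1886 and 2085. WT replicates 1 and 2 lay above all other libraries, while F2_outcross replicate 2 lay above WT replicates 3 and 4. The fit gave a log2 fold change of -0.29 ± 0.13 (SE, n = 4 per group; interval -0.57 to -0.02; limma adjusted p = 0.214). The Psme1 to Psme2 ratio per kb was 1.17 ± 0.103 in WT and 1.19 ± 0.105 in F2_outcross (SD, n = 4 per group), with overlapping groups.

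Tap1 and Tap2 encode the subunits of the heterodimeric transporter that pumps peptides into the endoplasmic reticulum. Tap1 (chromosome 17, 34187553 to 34197225) was at 1078, 645, 742 and 727 normalized reads in WT and at 605, 499.6, 656 and 525 in F2_outcross. WT replicate 1 was again the highest, and the groups overlapped through WT replicate 2 and F2_outcross replicate 3 alone. The means were 798 ± 191 and 572 ± 72.2 (SD, n = 4 per group), 1.38-fold higher in WT. The log2 fold change was -0.46 ± 0.16 (SE; interval -0.80 to -0.12; limma adjusted p = 0.123), and -0.31 without WT replicate 1.

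Tap2 (chromosome 17, 34203527 to 34216321) was at 1210.1, 1098, 1217 and 970.5 normalized reads in WT and at 879, 976, 934 and 983 in F2_outcross. WT replicates 1, 2 and 3 lay above all F2_outcross libraries and WT replicate 4 among them. Its fitted log2 fold change was -0.25 ± 0.10 (SE, n = 4 per group; interval -0.47 to -0.02; limma adjusted p = 0.195). Tap1 to Tap2 per kb was 0.827 ± 0.164 in WT and 0.710 ± 0.117 in F2_outcross (SD, n = 4 per group), and the groups overlapped.

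Tapbp encodes tapasin, which bridges TAP and the class I molecule and edits its peptide (chromosome 17, 33915899 to 33929292). WT levels were 2429, 2288, 2183 and 2158 normalized reads, and F2_outcross levels were 2406, 2604, 2587 and 2779. The groups would have been apart but for WT replicate 1, which lay just above F2_outcross replicate 1. The means were 2264 ± 123 and 2594 ± 152 (SD, n = 4 per group). On the log2 scale the difference was 0.20 ± 0.09 (SE; interval -0.00 to 0.39; limma adjusted p = 0.242).

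Erap1 encodes the aminopeptidase of the endoplasmic reticulum that trims peptides to the length class I molecules hold (chromosome 13, 74639568 to 74693201). WT levels were 3305, 2664, 3197 and 3226 normalized reads, and F2_outcross levels were 3359, 2995, 3288 and 3391. The groups were intermixed, with WT replicate 2 lowest and F2_outcross replicate 2 next. The fit gave a log2 fold change of 0.08 ± 0.10 (SE, n = 4 per group; interval -0.14 to 0.30; limma adjusted p = 0.709), and it was 0.0054 without WT replicate 2 and 0.12 without F2_outcross replicate 2.

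Nlrc5 encodes the transactivator of class I genes, which acts through the SXY promoter module and also on Tap1, Psmb9 and B2m (chromosome 8, 94434356 to 94527272). WT levels were 550.5, 347, 565 and 493 normalized reads, and F2_outcross levels were 500.4, 292, 602 and 338. The highest and the lowest of the 8 libraries were both F2_outcross, replicates 3 and 2. The log2 fold change was -0.21 ± 0.22 (SE, n = 4 per group; interval -0.70 to 0.28; limma adjusted p = 0.639). Dropping F2_outcross replicate 2, 3 or 4 gave -0.04, -0.39 and -0.11, and dropping WT replicate 2 or 3 gave -0.36 and -0.13.

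**Figure D3:**
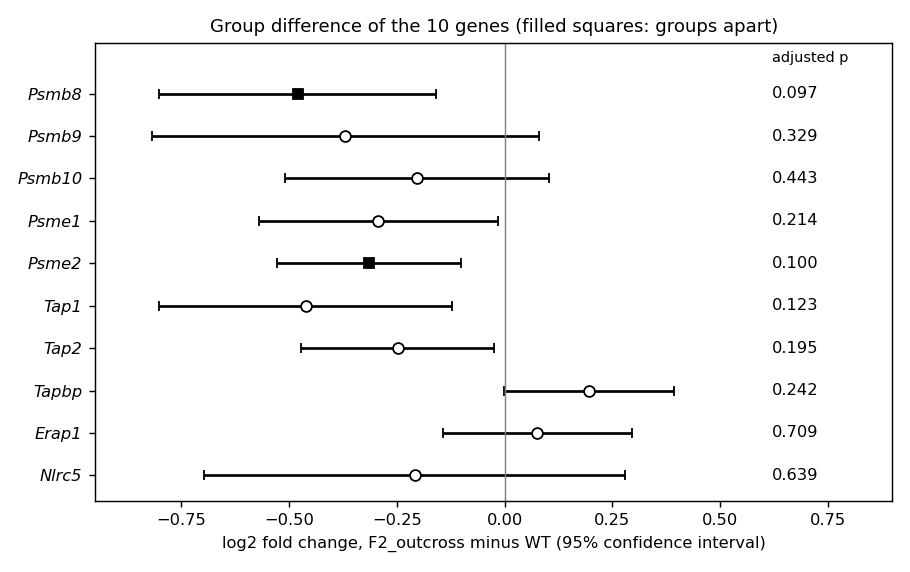
Log2 fold change (horizontal axis, F2_outcross minus WT) of the 10 genes with 95% confidence intervals and limma adjusted p beside each. Filled squares mark Psmb8 and Psme2, whose groups are apart, and 8 of the 10 estimates lie below 0.

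Counted together, 0 of 10 genes were called at an adjusted p under 0.05, against 2.66% of all tested genes (limma). With limma voom on the whole reads the count was also 0, and with library weights it was 2, Psmb8 and Psme2, against 11.9% of all genes. At an adjusted p under 0.10 the same 2 genes passed, against 7.46%. At an unadjusted p under 0.05 the count was 5 (Psmb8, Psme1, Psme2, Tap1 and Tap2), against 21.1%. All 4 F2_outcross values lay below all 4 WT values for 2 genes, against 5.45% of all genes (784 of 14390). Counted in either direction, the groups were apart for the same 2 genes and for 1720 of the 14390. The fitted value was negative for 8 of 10 genes with a median of -0.27, beside 51.1% of all tested genes and a median of -0.01. The number below 0 was 8 under each of the 20 alternative settings tried, some of which cannot change a fitted value. Because these genes share libraries and were chosen with earlier results of these data known, no test over the list is given.

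Per kb of the principal transcript, the genes spanned a wide range of levels in WT. Psme1 was highest with 2318 ± 344 normalized reads per kb, followed by Psme2 (1979 ± 164), Psmb10 (965 ± 176), Psmb8 (847 ± 205) and Tapbp (781 ± 42.5; SD, n = 4). Erap1 (549 ± 51.9), Psmb9 (536 ± 178), Tap2 (327 ± 33.7), Tap1 (270.2 ± 64.8) and Nlrc5 (64.5 ± 13.2) came after. Among neighbours in that order, the WT ranges were apart between Psme2 and Psmb10, between Tapbp and Erap1 and between Tap1 and Nlrc5, and overlapped otherwise. In F2_outcross Tapbp stood at 895 ± 52.5 per kb, above Psmb10 (835 ± 113) and Psmb8 (597 ± 54.5). With the union of exons as length, Tapbp and Erap1 came before Psmb8 and Tap2 before Psmb9 in WT, so the order in the middle depends on the length used.

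Genes also differed in their spread between animals. In WT the coefficient of variation of normalized reads ran from 5.44% for Tapbp to 33.3% for Psmb9. In F2_outcross it ran from 5.10% for Tap2 to 33.1% for Nlrc5. WT replicate 1 held the highest WT value for 7 genes, and F2_outcross replicate 1 held the lowest F2_outcross value for 5.

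Genes that lend peptides, chaperones or signals to this route were counted by list, each beside the median log2 fold change of -0.01 over all tested genes. With voom these lists held no call beyond the one named here. Counts at an unadjusted p under 0.05, which 21.1% of all tested genes reached, are given where they are above 0. Among 8 partners of the loading complex, such as the light chain gene B2m and the chaperones Calr and Canx, 0 were called, and the median was -0.02. The named ones were Canx (0.21) and Ganab (0.17), a glucosidase that trims glycans on new proteins (limma adjusted p = 0.320 and adjusted p = 0.322). B2m itself was at 51414 ± 6701 normalized reads in WT and 44458 ± 5068 in F2_outcross (SD, n = 4 per group). The class I heavy chains that receive the peptides had opposite signs. H2-K1 had a log2 fold change of 0.36 (limma adjusted p = 0.204) and H2-D1 one of -0.54 (adjusted p = 0.0888), and their reads may be shared with other class I genes. Both had an unadjusted p under 0.05, and H2-D1 was called with library weights and without WT replicate 2 (adjusted p = 0.0227 and adjusted p = 0.0365, limma).

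The standard catalytic subunits and the other activators held 5 tested genes, with 0 called, 1 at an unadjusted p under 0.05 and a median of -0.09. Psmb6 was at -0.28 and Psme4, the PA200 activator gene, at 0.13 (limma adjusted p = 0.156 for Psmb6). Of 5 proteasome assembly genes 0 were called and 2 had an unadjusted p under 0.05, with a median of -0.20, and Psmg4 (-0.41, adjusted p = 0.154) and Psmg2 (-0.25) had the smallest p (limma). Of 7 further peptidases 0 were called, with a median of 0.02. Those with the smallest p were Lnpep (0.30), which trims peptides in endosomes, and Tpp2 (-0.15), a large cytosolic peptidase.

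Regulators and targets of interferon had negative medians, and none of them passed the test. Of 14 genes of interferon signalling 10 were below 0 and 0 were called, 2 had an unadjusted p under 0.05, and the median log2 fold change was -0.16. Irf8, a factor of myeloid cells and B cells, had a log2 fold change of -0.53 (limma adjusted p = 0.174). It was -0.32 without WT replicate 1 and -0.71, with a call, without WT replicate 2 (adjusted p = 0.392 and adjusted p = 0.0402, limma). Of 10 genes induced by interferon-gamma, 10 were below 0, beside 51.1% of all tested genes, and 0 were called, with a median of -0.86. The immunity-related GTPase genes Irgm2 (-1.04, limma adjusted p = 0.0522) and Igtp (-0.85, adjusted p = 0.0911) had the smallest p. At an unadjusted p under 0.05 the list counted 6, against 21.1% of all tested genes. With library weights 7 of the 10 were called, against 11.9% of all tested genes. Without WT replicate 2 both named genes were called (limma adjusted p = 0.00806 and adjusted p = 0.0265), as was Irgm2 without F2_outcross replicate 3 (adjusted p = 0.0357). Irgm2 and Igtp overlap on chromosome 11, so their reads may not be separable.

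Ciita, the class II counterpart of Nlrc5, fell, and it was the 1 gene called among 59 in the 8 lists. It belonged to the list of 8 factors of the SXY module, whose median was -0.06 and of which 2 had an unadjusted p under 0.05, Ciita and Nfya. Ciita was at 271, 146, 173 and 170.1 normalized reads in WT and at 36.0, 27.8, 138 and 34.1 in F2_outcross. All F2_outcross libraries lay below all WT libraries, with F2_outcross replicate 3 far above the other 3. On the log2 scale the difference was -1.96 ± 0.41 (SE, n = 4 per group; limma adjusted p = 0.0313). The call was lost with robust moderation and without any 1 of WT replicates 1, 3 and 4 and F2_outcross replicates 1, 2 and 4 (adjusted p up to 0.0910). Nfya, a subunit of the CCAAT-binding factor NF-Y, was at 0.31 (adjusted p = 0.226), and at 0.20 without F2_outcross replicate 3.

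**Figure D4:**
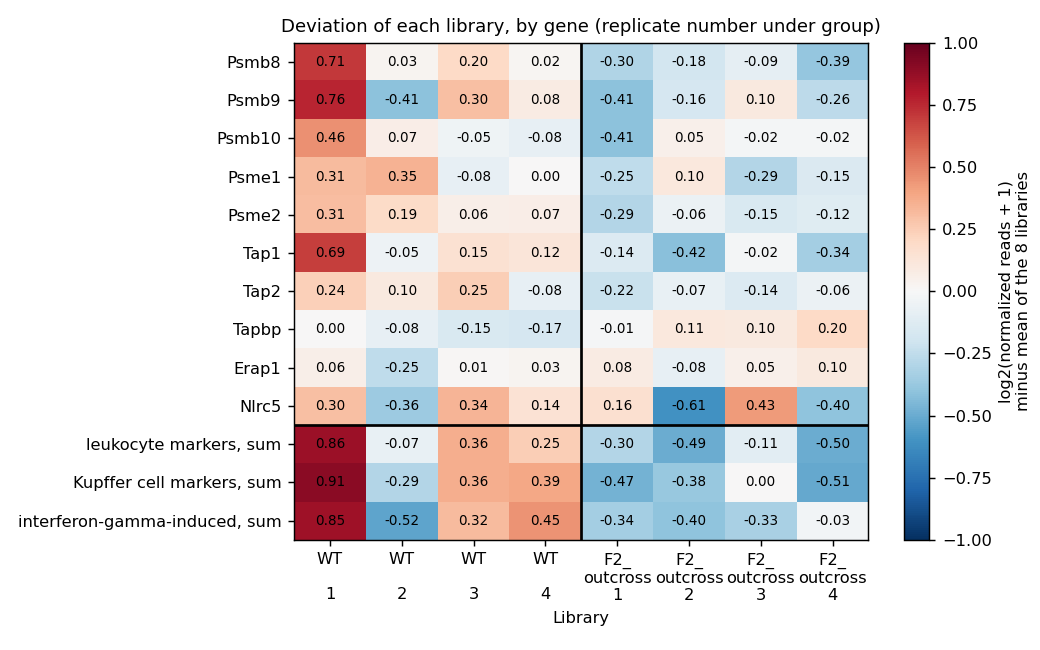
Deviation of each library from the mean of the 8 (colour and printed value, log2(normalized reads + 1)) for the 10 genes and, under the line, for the summed level of leukocyte markers, Kupffer cell markers and interferon-gamma-induced genes. WT replicate 1 has the highest value in the 3 summed lists (0.86, 0.91 and 0.85) and in 5 genes.

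Marker levels of leukocytes are given beside these values, with sums over all markers of a list, those under the filter included. In 6 marker lists of leukocyte types 34 of 35 tested genes had a negative log2 fold change, beside 51.1% of all tested genes. Of the 35, 5 were called, all lower, against 2.66% of all tested genes in either direction. These markers share the same 8 libraries and are not independent results. The 6 general leukocyte markers summed to 2375 to 4527 normalized reads in WT and to 1772 to 2319 in F2_outcross, so the sums narrowly did not overlap. For 2 of the 6 markers all F2_outcross values lay below all WT values, against 5.45% of all tested genes. The largest part of the sum was Laptm5, a lysosomal membrane protein of blood cells. It was at 1081 in WT replicate 2, the lowest WT sum, so the separation leans on this gene. Laptm5 fell (-0.63, limma adjusted p = 0.0315). The 7 Kupffer cell markers summed to 14203 to 32621 in WT and 12213 to 17429 in F2_outcross, and 0 were called, with Cd5l at -0.86 (limma adjusted p = 0.0639). At an unadjusted p under 0.05 the count was 7, against 21.1% of all tested genes. With voom it was 0, and with library weights all 7 were called, against 11.9% of all tested genes. Cd5l was also called without WT replicate 2 or F2_outcross replicate 3 (limma adjusted p = 0.0126 and adjusted p = 0.0466).

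B cell markers summed to 353 to 782 normalized reads in WT and 145 to 328 in F2_outcross, and 2 of 6, the immunoglobulin heavy chain genes Ighm (-1.11) and Ighd (-1.64), fell (limma adjusted p = 0.0333 and adjusted p = 0.0377). T and NK cell markers summed to 209 to 537 and 165 to 211, and 1 of 7, Nkg7 of cytotoxic granules, fell (-1.10, adjusted p = 0.0438). Neutrophil and monocyte markers summed to 166 to 667 and 117 to 173, and 1 of 5, S100a8, fell (-1.67, adjusted p = 0.0313), with Ly6g at 0 in some libraries. Dendritic cell markers summed to 246 to 285 and 223 to 287, and 0 of 4 were called, with Itgax at -0.87 (adjusted p = 0.286), and at -0.48 without F2_outcross replicate 4. Those sums overlapped and were mostly Zbtb46, whose log2 fold change was 0.13. All 5 leukocyte calls were lost when either WT replicate 1 or 3 or either F2_outcross replicate 1 or 2 was dropped (limma adjusted p from 0.0688 to 0.141). Some were also lost when F2_outcross replicate 3 (Ighm, Ighd, S100a8) or 4 (Laptm5, Nkg7) or WT replicate 4 (all but Laptm5) was dropped, with quantile normalization (Ighd), with no filter on low values (Nkg7) or with voom (S100a8).

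WT replicate 1, the library with the highest Psmb8, Psmb9, Psmb10, Tap1 and Psme2, also had the highest summed level of general leukocyte, B cell, T and NK cell, Kupffer cell and neutrophil markers and of interferon-gamma-induced genes. Dendritic cell markers differed, with a sum of 253 normalized reads in WT replicate 1 and the highest, 287, in F2_outcross replicate 3. WT replicate 2, with the lowest Psmb9, had the lowest interferon-gamma-induced sum of the 8. That sum was 31798, 12256, 21942 and 24123 normalized reads in WT and 13936, 13319, 14070 and 17321 in F2_outcross. Its largest part was Iigp1, at 16415, 6556, 13387 and 13370 in WT and 8768, 7467, 7157 and 11910 in F2_outcross. The listed genes did not all share this order, since Igtp and Irgm2 were lowest in F2_outcross libraries. The part of leukocyte markers and of interferon-induced genes in the results for the 10 genes was not tested.

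Tap1, Tap2, Psmb8 and Psmb9 lie side by side in the class II region of the major histocompatibility complex, and the Tapbp start lies at -272 kb from that of Tap1. The 5 chromosome 17 genes had a median log2 fold change of -0.37 and the other 5 genes one of -0.21. Of 21 further tested genes that start within 100 kb of one of them, 2 fell, 0 rose, and the median was -0.08. Those called were H2-DMb2 (-1.88), a subunit of the class II peptide editor, and H2-Aa (-1.60), a class II chain (limma adjusted p = 0.0203 and adjusted p = 0.0298). Both calls were lost when WT replicate 1, 3 or 4 or F2_outcross replicate 2 was dropped (adjusted p up to 0.0807), and that of H2-Aa also when F2_outcross replicate 1 or 4 was dropped and with robust moderation (adjusted p = 0.0952). Psmb8, Psmb9, Tap1 and Tap2 thus sat between class II genes with larger differences, and the genes around Tapbp lay on both sides of 0.

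**Figure D5:**
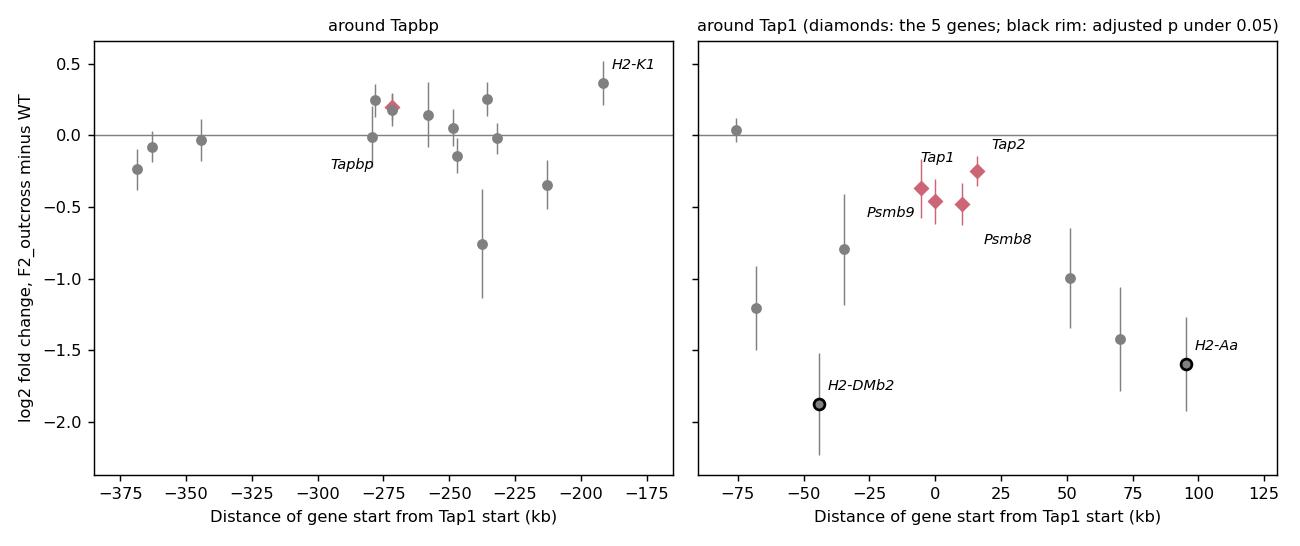
Log2 fold change (F2_outcross minus WT, points with SE lines) against the distance of each gene's start from the Tap1 start in kb, in the window around Tapbp and that around Tap1. Diamonds are the 5 genes on chromosome 17, from -0.48 for Psmb8 to 0.20 for Tapbp, and black rims mark H2-DMb2 and H2-Aa, the genes called.

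Gene extents of 9 of the 10 genes overlap an annotated gene on the opposite strand, among them Tap1 with Psmb9, Erap1 with Cast and Psme1 with Emc9. On the same strand, Zbtb22 (33915904 to 33919325) lies inside the extent of Tapbp, and strand cannot separate their reads. The log2 fold change of Zbtb22 was 0.18 (limma adjusted p = 0.401). The library preparation kept strand. Whether the authors' counting used it is not stated, and reads in the overlaps cannot be assigned with certainty.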

How the data were processed

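Per the labels' protocols, RNA from 8 female livers was extracted with a lipid tissue kit and made into directional libraries. Cutadapt, HISAT2, DESeq2 and build GRCm38 are named in the submitters' processing notes. How reads were counted per gene, with which annotation and strand setting, is not given in the sources used here. The deposited table holds log2 values, which the authors made from size-factor-normalized counts plus 0.1. That reading comes from the values: after subtraction of 0.1, 100% were whole multiples of 1 step per library within 0.001 reads. The design had assumed linear values, so the deposited log2 values were converted first. Of 25069 lines, 395 had no symbol (0.611% to 1.22% of reads) and were left out. No libraries were copies of each other (chi-square per degree of freedom 35.9 or more).

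The test covered genes with 10 or more normalized reads in 4 or more libraries. It was run with limma 3.58.1 in R 4.3.3 on log2(normalized reads + 1), which understates changes of low genes (group as the 1 term, mean-variance trend, two-sided, Benjamini-Hochberg over 14390 genes, threshold 0.05). Every adjusted p is from limma. The code was tested on simulated data. Positions and lengths came from GENCODE M21 (GRCm38), promoters from RefSeq. Members and lists were chosen with earlier results of these data known. Named genes were the 10 members, genes past the threshold and the 2 with the smallest p of each pathway list, those past the threshold or else the 1 with the smallest p of each marker list, and called genes, other than predicted models and pseudogenes, within 100 kb of a chromosome 17 member. A single-gene result that the rule selects is not reported here. B2m, Calr, Psme2b, Zbtb46, Cast, Emc9, Iigp1, Zbtb22 and Alb were named outside that rule. Alternatives were pseudocounts of 0.5 and 5, filters, scalings, robust moderation, library weights, voom, 0.10 as threshold and the removal of 1 library at a time. The deposited log2 scale, the union of exons and the Psme2 sum were added after seeing the data.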

Additional observations from a re-analysis of the deposited data

Results flagged for a closer look

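In 7 of 78 groups of 4 single-gene values, 1 library lay far from the other 3 by Dixon's criterion, and chance alone marks about 1 in 20 groups. Among the 10 genes this was Erap1 in WT, with 2664 normalized reads in WT replicate 2 and 3197 to 3305 in the others.

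F2_outcross replicate 3 stood apart in 3 genes around the class I route. Ciita, the class II transactivator, was at 138 normalized reads there against 27.8 to 36.0 in the other F2_outcross libraries. Irgm2, induced by interferon-gamma, was at 1663 against 1016 to 1084.5, and H2-K1, a class I heavy chain, at 27620 against 24336 to 24679.

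The other 3 genes lie outside the route or beside it. Ganab, a glycan-trimming glucosidase, was at 5496 in WT replicate 1 against 6106 to 6180 normalized reads. Lyve1, a marker of sinusoidal endothelium, was at 62.6 in WT replicate 2 against 150.4 to 167. Cps1, the first enzyme of the urea cycle, was at 150760 in F2_outcross replicate 4 against 196180 to 198320.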

How the results depend on the processing

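Across 20 alternative settings the sign of all 10 log2 fold changes was kept. The filters, robust moderation and the threshold of 0.10 leave each gene's log2 fold change as it was, so they could not change a sign. The number of the 10 genes called was 2 with library weights and 2 at a threshold of 0.10, and 0 in the other settings, among them the 8 that left out 1 library each. Over all genes the count was 1709 with library weights (809 higher and 900 lower, with weights from 0.348 to 2.31) and 1073 at a threshold of 0.10 (543 higher and 530 lower). When 1 library was left out it ran from 111 to 1073, with 71 to 497 higher and 34 to 576 lower. The cause was not tested. Psmb8 ranged from -0.55 to -0.32 (limma adjusted p 0.0343 to 0.212) and Psme2 from -0.35 to -0.26 (adjusted p 0.0427 to 0.262). The 10 genes had 292 to 3391 normalized reads per library, and 4 animals per group limit the precision of the intervals. No paired analysis was possible because the labels give no shared replicate numbers. Replicates 1 to 4 as numbered here follow the order of the columns within each group and pair no animals.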

Other observations

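Marker lists of other liver cells had medians on both sides of 0. Of 4 tested bile duct markers 4 had a positive log2 fold change, and 1, Spp1, the secreted phosphoprotein osteopontin, rose. Its levels were 141, 108, 213 and 170.1 normalized reads in WT and 433, 249, 307 and 337 in F2_outcross, with no overlap (log2 fold change 1.08 ± 0.21, SE, n = 4 per group; limma adjusted p = 0.0247). The call was lost without WT replicate 1, WT replicate 4 or F2_outcross replicate 1 (adjusted p 0.0574 to 0.0716). All 5 listed markers, Spp1 included, summed to 245 to 338 normalized reads in WT and 404 to 599 in F2_outcross, while Krt7, Krt19 and Sox9 each overlapped between the groups.

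Of 7 sinusoidal endothelium markers 0 were called by limma or voom and 1 with library weights, 1 had an unadjusted p under 0.05, and the median log2 fold change was 0.06. Lyve1 was at 0.74 (limma adjusted p = 0.161), and at 0.40 without WT replicate 2. Their sums were 10894 to 12917 normalized reads in WT and 10901 to 12377 in F2_outcross. Of 8 stellate cell markers 0 were called by limma or voom and 1 with library weights, 1 had an unadjusted p under 0.05, with a median of -0.06 and sums of 8178 to 13104 and 10131 to 11706. Col1a1, a fibrillar collagen chain, was at 56.2 to 149 normalized reads in WT and 155 to 237 in F2_outcross (log2 fold change 1.01, limma adjusted p = 0.0555). It was called with library weights (adjusted p = 0.0202), with quantile normalization (adjusted p = 0.0415) and without WT replicate 1 (adjusted p = 0.0347). Of 8 hepatocyte markers 0 were called by limma or voom, 3 had an unadjusted p under 0.05, and the median was -0.07. Cps1 was at 0.56 (limma adjusted p = 0.131) and was the 1 called with library weights (adjusted p = 0.0426).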
